A study of Arabidopsis thaliana with 6 samples.

Results

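The genes described here were high in replicate 1 of both genotypes in a comparison of sni1 with wild-type Arabidopsis thaliana. They are the 10 of 22746 probe sets for which the lower of the replicate 1 arrays (1 of sni1 and 1 of wild type) had at least 2 times the signal of the highest of the 4 arrays of replicates 2 and 3. A mean signal of 50 or more over the 6 arrays was also required, and plastid-encoded genes were left out. These conditions were met by 10130 probe sets, of which the 10 members are 0.0987%. The members were chosen by the signals of all 6 arrays, so the excess in replicate 1 is described without a test. The same rule applied to replicate 2 gave 20 probe sets, and applied to replicate 3 it gave 25.

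RNA of whole plants was measured on ATH1, an Affymetrix array that reads each transcript with several short probes (a probe set). The 3 sni1 samples carry a radiation-induced mutation that the labels place in At4g18460, in the Col-0 background, and the 3 wild-type samples are Col-0. Seeds of both genotypes had 3 days of cold at 4 °C, and plants grew on soil at 22 °C to growth stage 3.90. SNI1 is known to hold back systemic acquired resistance, a state of heightened defence. The labels do not say whether replicates came from separate sowings, harvests or extractions. The replicate number is therefore only the number in the sample titles, and the spread behind the p-values may be technical.

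Arrays of the same replicate number deviated together from their genotype means, with correlations of 0.66, 0.58 and 0.71 over 13648 tested probe sets, which are not independent points. Both replicate 1 arrays lay above the other 4 in 11.5% of the tested probe sets. The 3'/5' ratio of an actin control pair, which is read as RNA integrity, was 7.61 in sni1 and 4.75 in wild type in replicate 1, and lay between 2.58 and 4.89 on the other arrays. In a second actin pair the replicate 1 ratios (1.53 in sni1 and 1.51 in wild type) lay within the range of the others, 1.43 to 1.77. The 3'/5' ratio of the GAPDH control was 1.51 in sni1 and 1.75 in wild type in replicate 1, 1.5 in sni1 and 1.62 in wild type in replicate 2, and 1.17 in sni1 and 1.12 in wild type in replicate 3, so replicates 1 and 2 both lay above replicate 3. Of 36 control probe sets with a mean of 50 or more, 0 met the rule. The share was 0.0987% among the other probe sets with such a mean that were not plastid-encoded. At that share a set of 36 would seldom hold any. In 5 of the 36 both replicate 1 arrays lay above the other 4. Of 73 tissue markers, 9 had a named probe set. The leaf genes RCA and PRK, which encode enzymes of photosynthetic carbon fixation, summed to 7925 in sni1 and 8262 in wild type in replicate 1, and to between 6394 and 9899 on the other arrays. PYK10 and EXPA7, markers of roots, summed to 50.5 in sni1 and 33.4 in wild type in replicate 1, and to at most 39.6 on the others. The 2 genes differed: PYK10 had 44.5 in sni1 and 19.6 in wild type in replicate 1, and at most 25.8 elsewhere. EXPA7 had 5.95 in sni1 and 13.9 in wild type in replicate 1, and up to 16.6 elsewhere. Their means, 21.9 and 12.1, were also low. The stomatal-lineage markers FAMA, SPCH and MUTE summed to 91.1 in sni1 and 75.6 in wild type in replicate 1. On the other arrays the sum lay between 50.9 and 75.2. In 0 of these 3 genes both replicate 1 arrays lay above the other 4. FAMA had 72.4 in sni1 and 52.2 in wild type in replicate 1, and between 45.0 and 60.2 elsewhere. SPCH and MUTE had low means, 5.72 and 8.59. The flower marker AT59 ran from 0.774 to 10.9 over the 6 arrays. The shoot-meristem marker CLV3 had 2.94 in sni1 and 10.2 in wild type in replicate 1, and between 1.55 and 2.76 elsewhere. Both of its replicate 1 arrays thus lay above the other 4, but its mean of 3.74 was low. The part of RNA integrity and of tissue composition in the excess was not tested. In samples of whole plants, more cells of a type and more RNA per cell cannot be told apart.

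Iron is required for photosynthesis and respiration, and plants adjust its uptake to supply. When iron is short, Arabidopsis is known to raise the transcripts of a group of basic helix-loop-helix (bHLH) transcription factors, bHLH101 among them, which act on genes of iron uptake in the root. The IRON MAN peptides, short proteins made in leaves and roots, promote this response, and POPEYE (PYE) is a bHLH factor that acts on the distribution of iron within the plant. This background is given because the member with the highest ratio encodes such a peptide. In addition, the 2 of 14 genes of an iron-status list that had a named probe set were also highest in replicate 1. The rest of that list had no named probe set and was not examined. Iron itself was not measured.

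Of the 10 members, 5 are paired with 1 gene by the annotation used here (4 protein-coding genes and 1 pseudogene) and 5 have no gene name. No named member lay within 5 genes of another in TAIR10.1 gene order. The ratio of the lower replicate 1 array to the highest of the other 4 had a median of 2.78 and ran from 2.02 to 6.56.

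AT1G47400 is a locus to which the annotation gives no further name and which is known from other work to encode an IRON MAN peptide. Its signal in replicate 1 was 809 in sni1 and 1081 in wild type. In replicate 2 it was 114 in sni1 and 123 in wild type, and in replicate 3 it was 61.2 in sni1 and 54.8 in wild type. The lower replicate 1 array stood 6.56 times above the highest of the others, the highest ratio among the members. The replicate 1 mean was 7.97 times that of replicate 2 and 16.3 times that of replicate 3, and the arrays of the 3 numbers did not overlap.

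AT5G05250, a protein-coding gene without a name in the annotation, showed the same order. In replicate 1 its signal was 524 in sni1 and 387 in wild type, against 85.5 in sni1 and 102 in wild type in replicate 2. In replicate 3 it was 44.3 in sni1 and 24.5 in wild type. The ratio was 3.78, and the mean of replicate 1 was 4.85 times that of replicate 2 and 13.2 times that of replicate 3.

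AT3G33066 is annotated as a pseudogene, and its probe set is of a type (suffix _s_at) that can detect several transcripts, so its signal may include other loci. It was the only such member. Replicate 1 had signals of 279.5 in sni1 and 299 in wild type. Replicate 2 had 23.9 in sni1 and 57.7 in wild type, and replicate 3 had 11.4 in sni1 and 14.6 in wild type. With a ratio of 4.85 it ranked after AT1G47400, and its replicate 1 mean was 22.3 times that of replicate 3, the widest such span among the members.

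AT5G62720 belongs to a family of membrane proteins (HPP family). Its signal was 1035 in sni1 and 1122 in wild type in replicate 1, against 391 in sni1 and 471 in wild type in replicate 2 and 407 in sni1 and 486 in wild type in replicate 3. The ratio was 2.13, and replicates 2 and 3 overlapped. AT4G29610, a gene of the cytidine deaminase family, had 97.7 in sni1 and 115 in wild type in replicate 1. In replicates 2 and 3 its sni1 signals were 37.8 and 27.3, and its wild-type signals were 46.9 and 35.5. Its ratio of 2.08 was close to the limit of the rule.

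The 5 members without a gene name are given by their probe set. Probe set 248270_at had 1394 in sni1 and 1843 in wild type in replicate 1, and between 205 and 399 on the other arrays (ratio 3.49). Probe set 257062_at had 669 in sni1 and 767 in wild type in replicate 1, and between 174 and 229.8 on the others (ratio 2.91). Probe set 264751_at had 348 in sni1 and 501 in wild type in replicate 1, and between 85.0 and 132 on the others (ratio 2.64). These 3 stood well clear of the limit in both genotypes. Probe set 257382_at had 530.1 in sni1 and 622 in wild type in replicate 1, and between 84.3 and 252 on the others (ratio 2.11). Probe set 260904_at had 117 in sni1 and 84.0 in wild type in replicate 1, 41.0 in sni1 and 41.5 in wild type in replicate 2, and 19.2 in sni1 and 1.83 in wild type in replicate 3. It was the member nearest to the limit, with a ratio of 2.02 and a mean over the 6 arrays of 50.7. Whether any of these 5 is plastid-encoded could not be checked from the annotation.

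**Figure D1:**
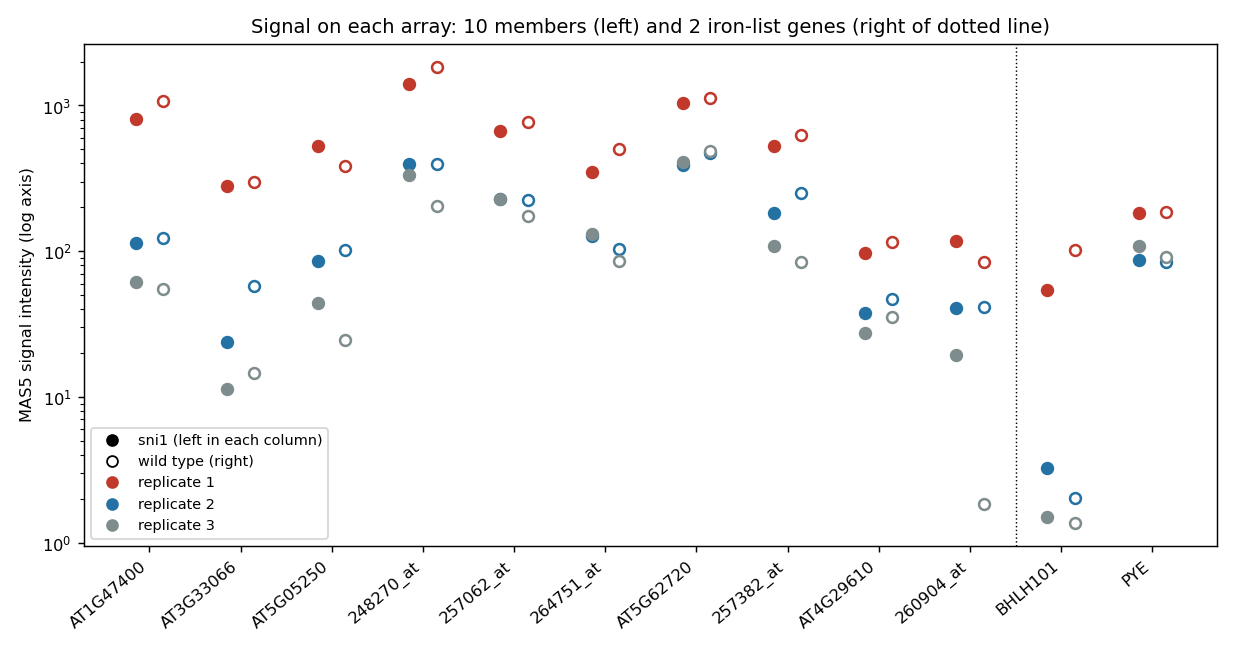
MAS5 signal intensity (log axis) of the 10 members and, right of the dotted line, of the iron-list genes BHLH101 and PYE. Each point is 1 array, with sni1 (filled) left of wild type (open) and the replicate number as colour. In every column both replicate 1 points lie above the other 4, as the rule requires of the members.

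Just outside the limit stood AT1G32840 (ratio 1.91), AT2G02210 (1.91) and the unnamed probe set 248353_at (1.89). AT1G32840 had 105 in sni1 and 93.6 in wild type in replicate 1 and at most 49.0 elsewhere, and AT2G02210 had 109 in sni1 and 117 in wild type against at most 57.3. Both are annotated as pseudogenes and have probe sets of a type (suffix _x_at) that can match more than 1 transcript. Just inside it were 260904_at (2.02), AT4G29610 (2.08) and 257382_at (2.11).

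**Figure D2:**
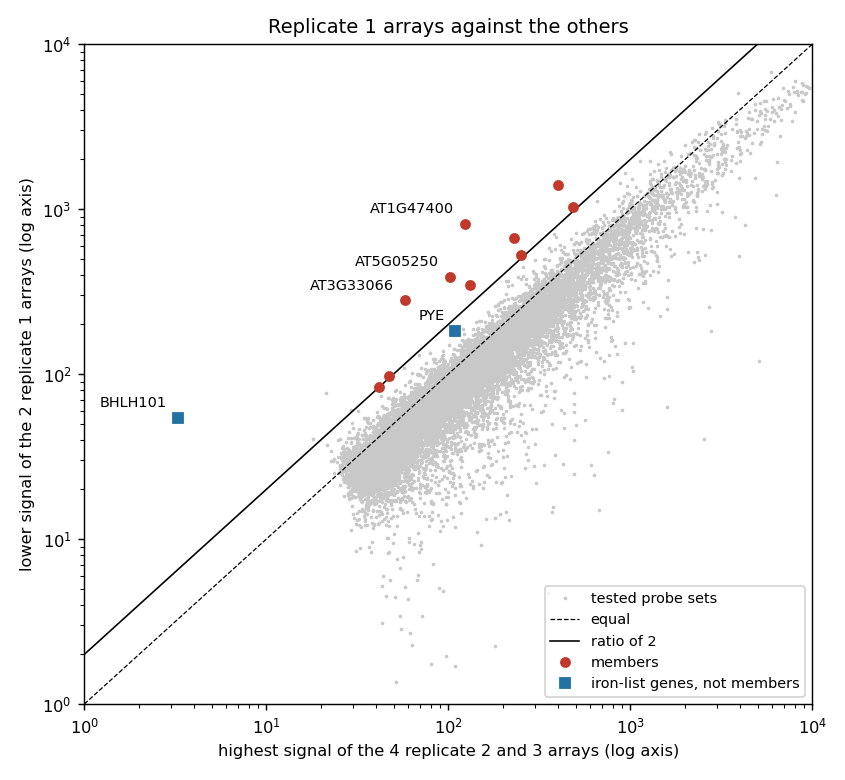
Lower signal of the replicate 1 arrays against the highest signal of the 4 other arrays (both log axes), 1 point per tested probe set, with lines at equality and at a ratio of 2. The members lie on or above the upper line, BHLH101 lies above it at a horizontal position below the 10th percentile of its array, where a ratio is not a measurable fold, and PYE lies between the lines at 1.68. Grey points above the upper line had a mean under 50.

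The rule asks nothing of the order of replicates 2 and 3. In 7 of the 10 members both replicate 2 arrays lay above both replicate 3 arrays, and in 0 both lay below. Over all tested probe sets these shares were 30.3% and 24.1%. The 7 were AT1G47400, AT3G33066, AT5G05250, AT4G29610 and the unnamed 248270_at, 257382_at and 260904_at, with replicate 2 means from 1.35 to 3.92 times those of replicate 3. The GAPDH 3'/5' ratio above was likewise higher on both replicate 2 arrays than on both replicate 3 arrays, and its part in this order was not tested. In AT5G62720, 257062_at and 264751_at the arrays of replicates 2 and 3 overlapped, and replicate 2 means were between 0.965 and 1.12 times those of replicate 3. The members thus share the excess in replicate 1 but not the profile over the other arrays.

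Gene lists gave the levels of other pathways. Of 318 genes in 35 lists, 40 had a named probe set and 28 were above the filter on low signal, and 0 of the 10 members were among them. Of the 14 genes of the iron-status list, 2 had a named probe set, BHLH101 and PYE, and on both genes the replicate 1 arrays lay above the other 4. BHLH101 (AT5G04150), the bHLH factor named above, had 54.2 in sni1 and 102 in wild type in replicate 1. In replicates 2 and 3 it had 3.27 and 1.5 in sni1, and 2.04 and 1.36 in wild type. Its mean of 27.5 was under the 50 that the rule asks for. The signals of replicates 2 and 3 lay below the 10th percentile of their arrays (1.81 to 3.78), so no size is given for its excess. PYE (AT3G47640) had 183 in sni1 and 185 in wild type in replicate 1, against 87.3 and 109 in sni1 and 84.0 and 91.0 in wild type in replicates 2 and 3, a ratio of 1.68.

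Of the 26 genes of the other lists above the filter, 2 (7.69%) had both replicate 1 arrays above the other 4, against 11.5% of all tested probe sets. They were BCAT4, an enzyme of glucosinolate synthesis, with a ratio of 1.28, and the clock gene GI with 1.14. BCAT4 had 1023 in sni1 and 918 in wild type in replicate 1 and at most 717 elsewhere. In 15 of the 35 lists 0 genes had a named probe set, so these lists were not analysed here. They cover salicylic acid defence, ethylene, jasmonate, abscisic acid, nitrate, phosphate, sulphur, hypoxia, high light, the morning clock and cell division. The others hold markers of seed, phloem, xylem and epidermis. Lowering the required mean to 25 added BHLH101, the unnamed probe set 251677_at (ratio 2.25) and the pseudogenes AT2G06480 (3.62) and AT4G03900 (2.09) to the 10 members.

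The annotated pseudogenes, the class of the member AT3G33066, were set beside the protein-coding genes after their values were seen. Of 72 tested pseudogene probe sets, 42 (58.3%) had both replicate 1 arrays above the other 4, against 764 of 7206 (10.6%) protein-coding probe sets. Both replicate 2 arrays lay above all others in 1 of the 72, and both replicate 3 arrays in 1. The median difference of the pseudogenes between replicates 1 and 2 was 0.47 in sni1 and 0.37 in wild type on the log2 scale, and between replicates 1 and 3 it was 0.94 in sni1 and 1.11 in wild type, while the medians over all tested probe sets lay between -0.013 and 0.060. The share was 79.1% (34 of 43) for pseudogene probe sets with the suffix _s_at or _x_at and 27.6% (8 of 29) for those with the suffix _at alone. Among protein-coding probe sets it was 22.9% (8 of 35) with the suffix _s_at or _x_at and 10.5% (756 of 7171) with _at alone. Among protein-coding probe sets with a mean of up to 79.2, the 90th percentile of the pseudogenes, the share was 10.6%. Probe sets that match more than 1 transcript can share targets, so they are not independent of each other.

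**Figure D3:**
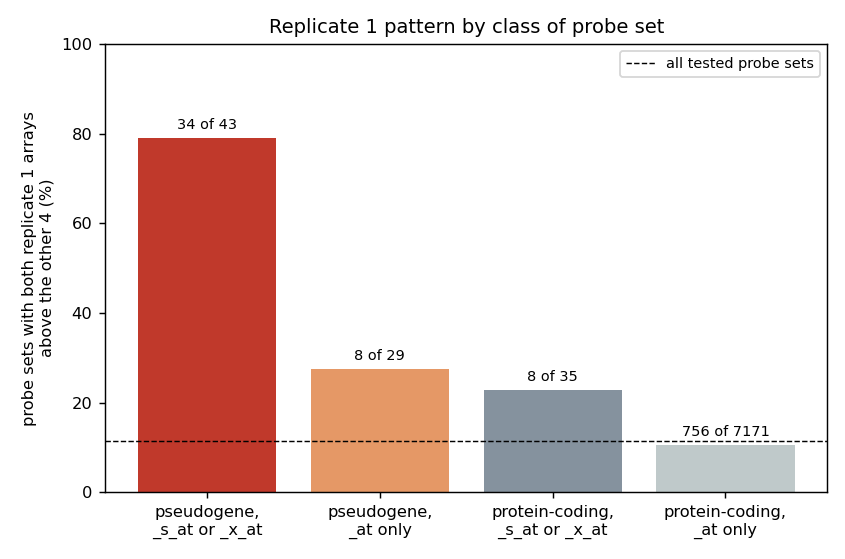
Share of tested probe sets (%) in which both replicate 1 arrays lay above the other 4, by annotated class and probe set suffix, with the count over each bar. The dashed line marks 11.5%, the share of all tested probe sets. The bars stand at 79.1% and 27.6% for pseudogenes and at 22.9% and 10.5% for protein-coding genes, in each class with _s_at or _x_at first and _at alone after it.

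The comparison of the genotypes was the measure that the rule did not use to separate arrays, since it treats sni1 and wild type alike. The rule sets no upper limit on the higher replicate 1 array. It does require the replicate 1 array of each genotype to be at least 2 times the replicate 2 and 3 arrays of the other genotype. A large genotype difference can therefore keep a probe set out of the members. No difference between sni1 and wild type was detected in the members. With limma, 0 of the 10 members passed an adjusted p of 0.05 as higher in sni1, against 0.520% of all tested probe sets. As lower 0 passed, against 0.0293% (0 also at an unadjusted p of 0.05). In this fit the replicate 1 excess that the rule requires widens the spread within each genotype (SE from 0.46 to 1.26), so a call was unlikely. With the replicate number as a block, 0 were higher, against 6.15% of all, and 0 lower, against 3.88%. With only 10 members and these shares, the counts of 0 do not set the members apart from other probe sets. At an unadjusted p of 0.05 the blocked limma fit called 3 members. The share of all tested probe sets at that p was not computed, so the 3 are not set against it. That share includes every probe set called after adjustment. The median log2 fold change of the members, sni1 minus wild type, was -0.015, and that of all tested probe sets was -0.0051. Of the members 5 had a negative and 5 a positive value, and 50.8% of all tested probe sets had a negative one.

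AT1G47400 averaged 328 ± 417 in sni1 and 419.7 ± 574 in wild type (SD, n = 3 each). Its log2 fold change was -0.12 with an SE of 1.2 (limma adjusted p = 0.991). The spread within each genotype came from the gap between replicate 1 and the others. With the block the SE was 0.13 and the 95% interval ran from -0.40 to 0.15 (limma adjusted p = 0.588), so a genotype difference of 2 times either way lay outside it. That interval holds for the 3 same-numbered pairs, whose pairing was taken from these data and whose spread may be technical. AT5G05250 averaged 218 ± 266 in sni1 and 171 ± 191 in wild type (SD, n = 3 each). The log2 fold change was 0.32, with an interval under the block from -0.065 to 0.71 (limma adjusted p = 0.284). Its sni1 signal was 1.35 times that of wild type in replicate 1, 0.837 times in replicate 2 and 1.81 times in replicate 3. Without both replicate 2 arrays and with the block it was the 1 member that passed, at a log2 fold change of 0.61 (limma adjusted p = 0.0477). In that fit 501 of all 13481 tested probe sets passed as higher in sni1 and 298 as lower.

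The lowest adjusted p with the block and all arrays was that of AT3G33066, with a log2 fold change of -0.52 ± 0.21 (SE with the block; limma adjusted p = 0.141). Its sni1 signal was 0.935, 0.414 and 0.779 times that of wild type in replicates 1, 2 and 3. AT5G62720 (-0.21 ± 0.092, limma adjusted p = 0.184) and AT4G29610 (-0.29 ± 0.15, 0.256) were also lower in sni1 in each of the 3 same-numbered pairs. A lower sni1 signal in all 3 pairs was found in 3 of the 10 members and in 23.4% of all tested probe sets, and a higher one in 0 members and 23.2% of all. Taken singly, the pairs differed in direction: sni1 was below wild type in 8 of the 10 members in replicate 1 (52.5% of all tested probe sets), in 7 in replicate 2 (51.9% of all) and in 3 in replicate 3 (47.1% of all). The median log2 difference of the members, sni1 minus wild type, was -0.21, -0.18 and 0.38 in replicates 1, 2 and 3.

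Of the unnamed members, 260904_at had the highest log2 fold change, 0.89 ± 0.35 (SE with the block; limma adjusted p = 0.145). That value rested on replicate 3, in which sni1 had 19.2 and wild type 1.83. The wild-type value was near the 10th percentile of its array (1.81). In replicate 2 its signal was 41.0 in sni1 and 41.5 in wild type. The remaining 4 had log2 fold changes from -0.11 to 0.12, with limma adjusted p from 0.707 to 0.758 with the block. BHLH101 stood at -0.17 ± 0.45 and PYE at 0.098 ± 0.12 (SE with the block; limma adjusted p = 0.853 and 0.660).

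**Figure D4:**
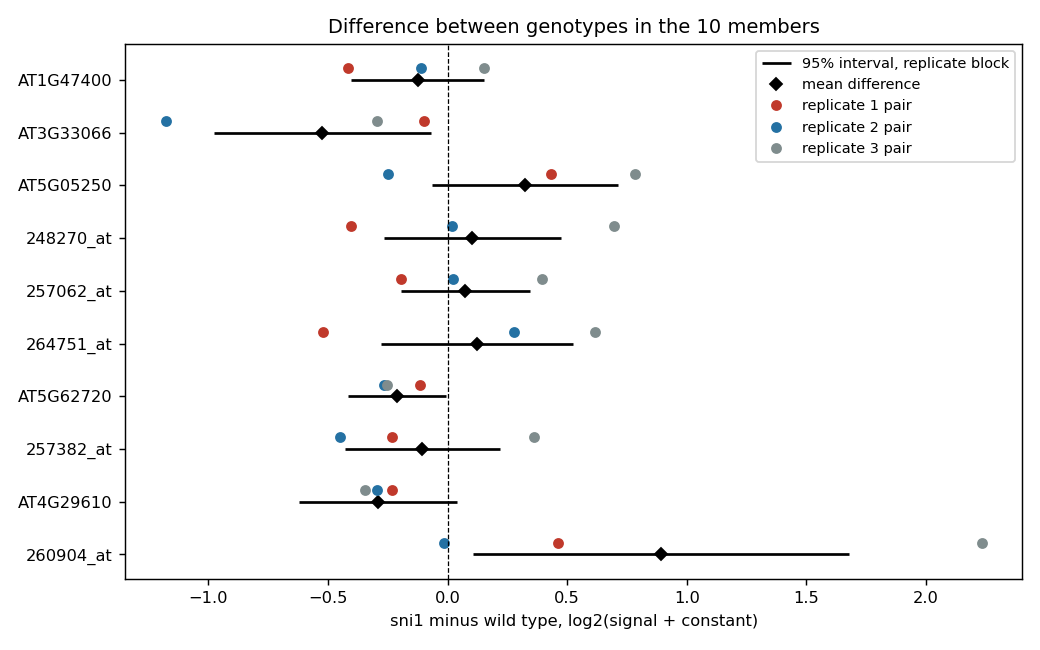
Difference between sni1 and wild type in each member on the log2(signal + 2.87) scale. Coloured points are the 3 same-numbered pairs, diamonds their mean, and lines the 95% interval from limma with replicate as a block. Points of most members lie on both sides of 0, and those of AT3G33066, AT5G62720 and AT4G29610 lie below it.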

How the data were processed

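The authors deposited linear signal intensities, 1 per probe set and array, made with MAS5 per the submitters' processing notes. Which version and settings were used is not stated there. With the top and bottom 2% of values removed the arrays had means of 100.01, so they had been scaled before deposit. Control probe sets (64) were left out. Of 22746 probe sets, 13436 were paired with 1 locus through the platform annotation and the gene identifiers of TAIR10.1, 503 had several genes and 8730 had no entry. No coordinates are given because the files name no build. List genes were used where the symbol matched the locus in that table (314 of 318).

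Values were transformed as log2(value + 2.87), where the constant is the 10th percentile over all arrays. This understates fold changes of low signals. Probe sets with a mean under 24.5, the 40th percentile, were left out of the fits. Genotypes were compared over all 13648 remaining probe sets with limma 3.58.1 (two-sided, variance trend on intensity; R 4.3.3) and Benjamini-Hochberg adjustment at a threshold of 0.05. The fit was tested on simulated data. The number of arrays limits the precision.

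Replicate numbers pair the samples: the deviations of an sni1 array and a wild-type array from their genotype means correlated at 0.66, 0.58 and 0.71 where the numbers matched, and at -0.53 to -0.054 where they did not. Deviations from a genotype mean cancel out over its arrays, so positive correlations for matching numbers force the others to be negative on balance. The negative values are therefore no separate support for the pairing. The pairing comes from the data, not from a statement in the labels. Named genes are all 10 members, the 3 probe sets just outside the ratio of 2, and genes of the lists. The members and lists were chosen with earlier results of these data known. Alternatives covered the limits of the rule, the constant, the filter, normalization, trend, array weights, the block and leaving out arrays. Promoter motifs were not analysed here. Figures were drawn with matplotlib 3.10.9.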

Additional observations from a re-analysis of the deposited data

How the results depend on the processing

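The count of 10 members was 42 at a ratio of 1.5, 4 at a ratio of 3 and 76 when the mean of the replicate 1 arrays was set against the mean of the others. It lay within 1.5 times of 10 with a mean of 25 or 100, after quantile normalization or median centring (8, without AT5G62720 at a ratio of 1.88 and 260904_at at a mean of 49.5) and with plastid-encoded genes kept. With 1 array left out and the rule applied to the other 5 it ran from 10 to 24, the highest without sni1 replicate 1 (24, holding 9 of the members), then without wild-type replicate 1 (18, holding 8) and without sni1 replicate 2 (16, holding 10). In the genotype comparison 0 members passed under each setting tried except the replicate block without both replicate 2 arrays, in which 1 passed. That setting called 501 of 13481 tested probe sets higher in sni1 and 298 lower. With the replicate block and quantile normalization 0 passed. Each replicate number holds 1 array of each genotype, so with all arrays in, the block cannot change a log2 fold change. The median log2 fold change of the members was therefore -0.015 with and without it. The block changed no call of a member. With arrays left out the count of members that passed ran from 0 to 1, and the median from -0.68 (without sni1 replicate 1) to 0.82 (without wild-type replicate 1), since a fit without 1 array leaves its same-numbered partner unpaired. No member kept its direction in all of these fits. With arrays left out the log2 fold changes ran from -1.20 to 1.1 for AT1G47400, -1.81 to 0.55 for AT3G33066, -0.69 to 1.28 for AT5G05250, -0.67 to 0.20 for AT5G62720, -0.80 to 0.19 for AT4G29610, -0.58 to 1.00 for 248270_at, -0.44 to 0.72 for 257062_at, -0.35 to 0.92 for 264751_at, -0.84 to 0.58 for 257382_at and -0.35 to 1.76 for 260904_at. With the replicate block and both arrays of 1 number left out, AT1G47400 (0.021, without replicate 1), 257382_at (0.066, without replicate 2), 248270_at (-0.19), 257062_at (-0.086) and 264751_at (-0.12, these 3 without replicate 3) changed sign. With array weights 248270_at (-0.053) and 257062_at (-0.018) changed sign, and the cause was not tested. Promoter motifs, planned as a description, were not run because no promoter sequence was used here. Depth is not defined for arrays, and signals near the 10th percentile, as of BHLH101 and 260904_at, set no reliable size.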
